A study of Homo sapiens with 120 samples.

Results

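The genes described here encode the Sec61 translocon and the proteins that sit beside it in the membrane of the endoplasmic reticulum (ER). They were chosen by symbol, as the rows named SEC61A1, SEC61B, SEC61G, SEC62, SEC63, SSR1, SSR2, SSR3, SSR4 and TRAM1, and they are 10 of the 57665 genes in the tables. Each symbol named 1 row, and all 10 were among the 26998 genes that passed the filter on low counts. The libraries came from 120 wells of the human osteosarcoma line U2OS, in 40 groups of 3 wells. The study set out to compare a selective switch for the integrated stress response with broader stress agents. The Dmr-PERK line stably carries the kinase domain of mouse PERK, which phosphorylates the translation factor eIF2α, joined to a DmrB domain that the ligand AP20187 pairs. The Parental line lacks that construct. Both are labelled WT for genotype, and the sources used here do not say whether the Dmr-PERK line is 1 clone.

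Cells of each line received the SERCA pump inhibitor thapsigargin at 100 nM, sodium arsenite at 0.05 mM or the dimerizer AP20187 at 0.2 nM (the series text), each for 2, 4, 8, 16 or 24 h. Untreated wells of each line were collected at 0, 4, 8, 16 and 24 h. The labels do not tie the 3 wells of a group to separate cultures, so p-values measure the spread between wells, which may be technical.

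Most secreted and membrane proteins enter the ER through the Sec61 channel while the ribosome is still making them. SEC61A1 forms the pore, with SEC61B and SEC61G as its small single-span partners. SEC62 and SEC63 assist some precursors, among them ones that enter after synthesis, and the J-domain of SEC63 recruits the lumenal chaperone BiP to the channel. The TRAP complex (SSR1, SSR2, SSR3 and SSR4, its α, β, γ and δ subunits) and TRAM1 flank the channel and help particular signal sequences to insert. In the unfolded protein response of the ER, the transcription factors ATF6 and XBP1 are known to raise genes of translocation and folding, while PERK slows protein synthesis through eIF2α.

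On GRCh38 the channel genes lie on chromosome 3 (ENSG00000058262.9, SEC61A1, 128051641 to 128071683, plus strand), chromosome 9 (ENSG00000106803.9, SEC61B, 99222064 to 99230615, plus strand) and chromosome 7 (ENSG00000132432.13, SEC61G, 54752250 to 54759974, minus strand). SEC62 (ENSG00000008952.16) spans 169966635 to 169998373 on chromosome 3, plus strand, and SEC63 (ENSG00000025796.13) spans 107867756 to 107958189 on chromosome 6, minus strand. Of the TRAP genes, SSR2 (ENSG00000163479.13) spans 156009048 to 156020959 on chromosome 1, minus strand, SSR3 (ENSG00000114850.6) spans 156540140 to 156555184 on chromosome 3, minus strand, and SSR4 (ENSG00000180879.13) spans 153793516 to 153798505 on chromosome X, plus strand. TRAM1 (ENSG00000067167.7) spans 70573442 to 70608387 on chromosome 8, minus strand. These positions come from GENCODE 29, in which the version of the SSR1 identifier in the tables (ENSG00000124783.12) was not matched, so no position is given for it. The sources used here do not say whether the counting used the strand, and SEC61A1 overlaps RUVBL1 and SSR4 overlaps IDH3G on the opposite strand, at a mean of 74.4 and 36.1 CPM (counts scaled to library size), so reads in the overlaps may be shared.

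Library totals lay between 1.29e+07 and 5.65e+07 estimated counts, with 2.23e+07 as the median, and replicates correlated at 0.986 to 0.999 across genes. The 3 Parental wells given arsenite for 24 h stood apart from the other libraries, and replicate 3 differed most from its group. Mitochondrial genes took between 2.72 and 6.61% of the counts over all libraries. The lowest share was that of replicate 3 of arsenite at 4 h in Dmr-PERK cells, against 4.72 and 4.56% in replicates 1 and 2. That well was within the limit for standing apart and is kept in the values below, and its part in them was not tested. Of 8 osteoblast and mesenchymal markers, SPARC, VIM and COL1A1 had medians of 1543, 2454 and 353 TPM in untreated Dmr-PERK cells. COL1A1 had a median of 1094 TPM in untreated Parental cells. In untreated Dmr-PERK cells RUNX2 and ALPL had medians of 13.3 and 8.28 TPM, and COL1A2, BGLAP and SP7 were at or below 1.801 TPM. In the same wells, among 6 epithelial markers KRT8 and KRT18 reached 221 and 818 TPM and the others stood at or below 7.27 TPM, and 6 blood markers stayed at or below 1.11 TPM. The treatments registered in DDIT3, a stress-induced transcription factor, at log2 fold changes of 4.76 with thapsigargin, 5.07 with arsenite and 3.15 with dimerizer in Dmr-PERK cells. HSPA5, which encodes BiP, changed by 3.64, −0.38 and 0.36 in the same order.

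Promoter windows of 250 bases before the RefSeq starts (GRCh38.p14) were available for 9 of the 10 genes in 13 windows. Elements were counted over the full windows, whereas the stretches shown were cut where an exon of the gene intervened. Stretches of SEC61A1 and SEC63, the genes with the largest thapsigargin effects in Dmr-PERK cells, are shown with SSR1, the gene lowered most by arsenite. They read 5′ to 3′ on the gene's own strand. SEC61A1 had a further window, at 128051391 to 128051640, directly before the gene span given above. That window held no CCACG on either strand and is not shown, and the SEC61A1 stretch printed here lies inside that span. Capitals mark CCACG or its complement CGTGG, the part of the ER stress element that ATF6 and XBP1 contact.
SEC61A1 (chr3:128052187-128052368, plus strand): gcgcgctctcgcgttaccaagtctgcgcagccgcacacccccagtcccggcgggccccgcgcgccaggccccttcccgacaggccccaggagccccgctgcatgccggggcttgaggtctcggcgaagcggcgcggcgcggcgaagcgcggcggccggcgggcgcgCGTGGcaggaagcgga
SEC63 (chr6:107958209-107958458, minus strand): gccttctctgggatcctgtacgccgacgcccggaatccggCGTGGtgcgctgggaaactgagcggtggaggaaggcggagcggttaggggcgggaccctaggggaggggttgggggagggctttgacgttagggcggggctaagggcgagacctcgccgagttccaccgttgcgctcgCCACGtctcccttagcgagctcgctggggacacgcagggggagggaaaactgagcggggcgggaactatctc
SSR1 (chr6:7313221-7313449, minus strand): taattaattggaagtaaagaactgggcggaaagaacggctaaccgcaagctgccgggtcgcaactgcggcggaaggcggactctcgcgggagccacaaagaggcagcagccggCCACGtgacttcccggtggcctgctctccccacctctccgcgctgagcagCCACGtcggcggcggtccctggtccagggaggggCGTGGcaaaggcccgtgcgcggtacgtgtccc

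CCACG, read on both strands, was in 11 of the 13 windows and in 8 of the 9 genes, and in 33.5% of all 35116 windows in the table. CCAAT was in 7 windows of 6 genes, against 32% of all windows. The full ER stress element, CCAAT followed after 9 bases by CCACG, was in 0 of the 13 windows and in 0.074% of all windows. TGACGTGG, the element bound by XBP1 and ATF6, which holds CGTGG within it, was in 3 windows, against 0.612% of all windows. Those 3 sites stand 41 bases before a RefSeq start of SSR3, 17 before that of SEC62 and 129 before one of SSR4. All 3 lie inside the gene spans given above, and the other windows of SSR3 and SSR4 lacked the element. The sites are shown with up to 11 flanking bases and capitals on CCACGTCA, the element's complement.
SSR3 (chr3:156554148-156554177, minus strand): tctgataacagCCACGTCAgcaaggaaact
SEC62 (chr3:169966779-169966806, plus strand): ccctcctcgctCCACGTCAgagggaacc
SSR4 (chrX:153794528-153794557, plus strand): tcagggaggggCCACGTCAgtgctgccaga
The ATF4-type elements TGATGNAA and TTGCATCA and the cyclic AMP element TGACGTCA were in 0 of the 13 windows, against 3.14, 0.772 and 1.65% of all windows. A match is a description of these letters only.

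In untreated cells the small channel subunits had the highest levels per unit length and the auxiliary SEC62 and SEC63 the lowest. TPM, which corrects for transcript length, is used here to compare genes. SEC61G averaged 337 ± 20.3 TPM in Dmr-PERK and 296 ± 21.3 TPM in Parental cells, and SEC61B 274 ± 11.1 and 264 ± 17.6 TPM (SD, n = 15 wells each, over 5 times). The pore SEC61A1 stood at 139.9 ± 12.9 TPM in Dmr-PERK and 158 ± 9.84 TPM in Parental cells. SSR2 and SSR4 lay between the small subunits and the pore, at 225 ± 11.3 and 202 ± 10.7 TPM in Dmr-PERK cells and 235 ± 5.52 and 240.0 ± 10.8 TPM in Parental cells. SSR3 and SSR1 were lower, at 147 ± 36.7 and 94.2 ± 8.39 TPM in Dmr-PERK cells and 132 ± 16.9 and 108 ± 6.61 TPM in Parental cells. TRAM1 had 110.1 ± 11.9 TPM in Dmr-PERK and 122 ± 14.8 TPM in Parental cells. At the foot of the order, SEC62 and SEC63 had 42.4 ± 5.52 and 41.8 ± 5.30 TPM in Dmr-PERK cells and 47.0 ± 6.52 and 43.3 ± 3.80 TPM in Parental cells. Neighbours in this order that stood within 1 SD of each other were SEC62 and SEC63 in both lines, SSR3 and SEC61A1 in Dmr-PERK cells, and SSR4 and SSR2, SSR3 and TRAM1, and TRAM1 and SSR1 in Parental cells.

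Between the untreated lines the differences were small. In the fit of edgeR's quasi-likelihood test with Benjamini-Hochberg adjustment over all genes tested, 8 of the 10 genes differed over 0 to 24 h, 2 of them higher (30.3% of all genes) and 6 lower (32.2%) in Dmr-PERK cells. Fold changes here and below are of TMM-scaled CPM, on the log2 scale with the standard error of the fit. SEC61G was 0.20 ± 0.030 higher in Dmr-PERK cells and SSR4 was lower (−0.25 ± 0.025), the widest differences in each direction. SEC61A1 (−0.17 ± 0.015), TRAM1 (−0.19 ± 0.015), SSR1 (−0.14 ± 0.019) and SEC62 (−0.11 ± 0.026) were also lower in Dmr-PERK cells. SEC61B (0.07 ± 0.028) was higher, a call lost without replicate 2 (0.07). SSR2 (−0.05 ± 0.023) was lower, a call lost with DESeq2's size factors (−0.04), with no filter on low counts (−0.05) and without replicate 1 (−0.04) or 2 (−0.05). SEC63 (0.00 ± 0.017) and SSR3 (−0.02 ± 0.023) did not pass, though on log2 TPM SSR3 was 0.13 higher in Dmr-PERK cells. Untreated wells also moved with time in culture, since 9 of the 10 genes passed the F-test over 0 to 24 h in Dmr-PERK and 9 in Parental cells (53.4% and 55.4% of all genes), and each treatment is therefore set against untreated wells of its own time.

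**Figure D1:**
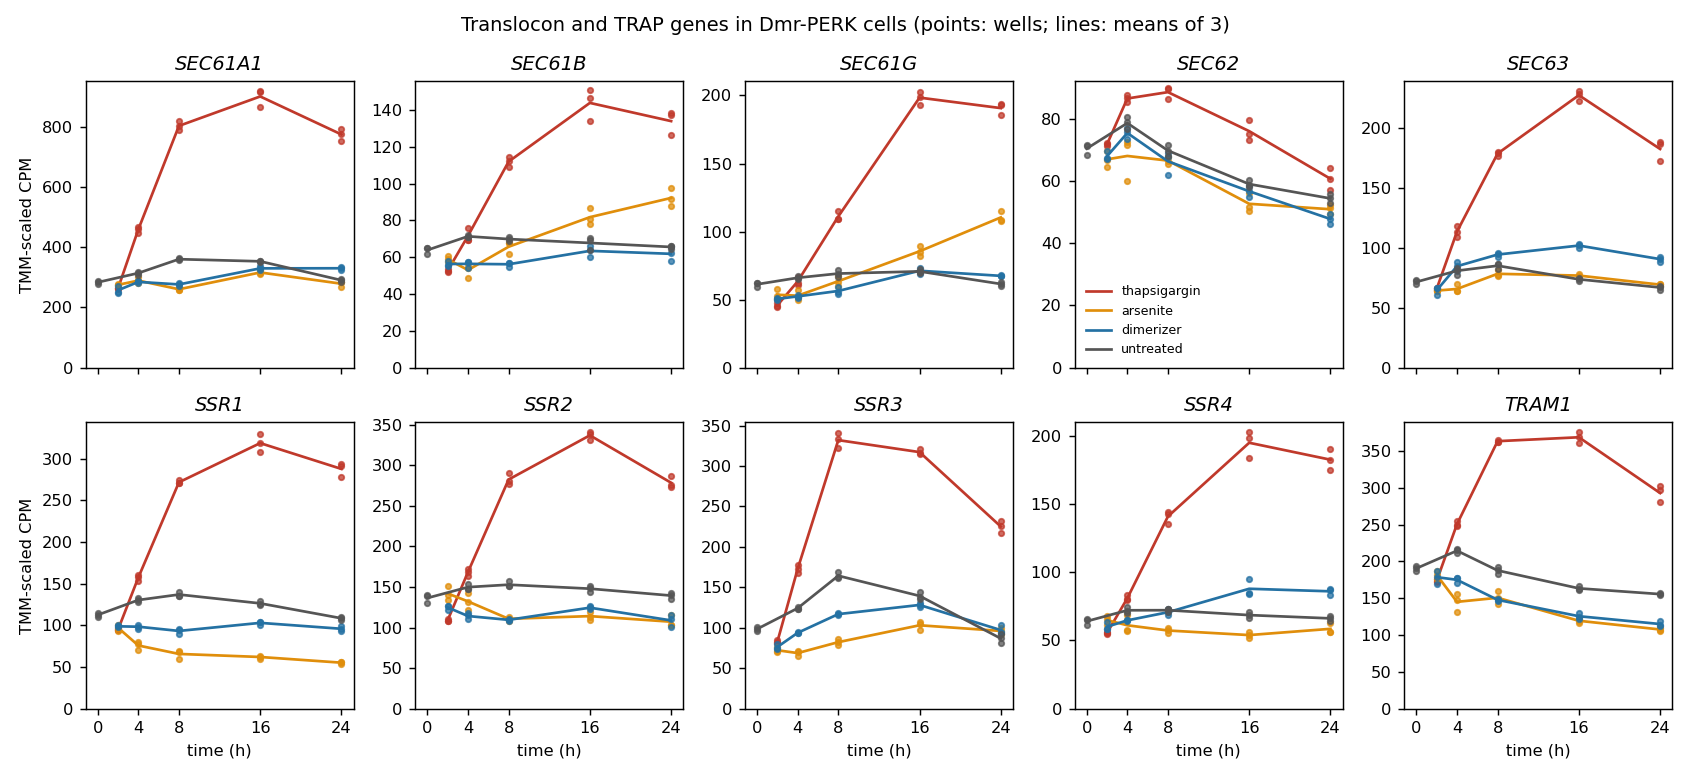
CPM (TMM-scaled, vertical axes) of the 10 genes against hours of treatment in Dmr-PERK cells, with 1 point per well, lines through the means of 3 wells, and colours for thapsigargin, arsenite, dimerizer and untreated cells. At 24 h the 3 thapsigargin wells lie above the 3 untreated wells in all 10 panels, as they did for 29.3% of all genes tested. SEC62 shows the narrowest gap.

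Thapsigargin raised all 10 genes in both lines. Averaged over 4 to 24 h the 10 were higher in Dmr-PERK cells (30.9% of all genes were called higher) and in Parental cells (30.1% higher). The median log2 fold change of the 10 was 0.97 in Dmr-PERK and 1.02 in Parental cells, beside 0.00 and −0.06 over all genes tested. As in every comparison here, the values are relative to the rest of the library, so a change in total RNA per cell cannot be seen. Of the channel genes SEC61A1 averaged 1.12 ± 0.016 in Dmr-PERK and 1.23 ± 0.016 in Parental cells, SEC61B 0.70 ± 0.030 and 0.74 ± 0.029, and SEC61G 0.94 ± 0.032 and 1.07 ± 0.032. SEC63 averaged 1.16 ± 0.018 in Dmr-PERK and 1.33 ± 0.017 in Parental cells. The plots of CPM by time and of effects by time show the courses.

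The pore gene SEC61A1 had 793, 775 and 754 CPM after 24 h of thapsigargin in Dmr-PERK cells, against 293, 285 and 292 CPM untreated. In Parental cells it had 952, 971 and 926 CPM with thapsigargin, against 327, 336 and 318 CPM untreated. The groups did not overlap in either line, and the log2 fold change was 1.41 ± 0.033 in Dmr-PERK and 1.54 ± 0.032 in Parental cells (adjusted p = 4.76e-61 and 2.5e-64, edgeR with Benjamini-Hochberg adjustment). The rise was already present at 4 h, at 0.55 ± 0.032 and 0.55 ± 0.032.

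The small subunits rose later. At 4 h in Dmr-PERK cells SEC61G had 66.9, 62.2 and 61.0 CPM with thapsigargin, against 66.0, 67.4 and 64.8 CPM untreated, and SEC61B had 76.2, 69.2 and 69.5 CPM with thapsigargin, against 71.2, 72.0 and 71.0 CPM untreated. Both pairs of groups overlapped and neither difference passed (−0.06 ± 0.066 and 0.01 ± 0.060), whereas the other 8 genes were called higher (19.7% of all genes higher) at that time. At 24 h SEC61G reached 193, 193 and 186 CPM with thapsigargin, against 61.3, 59.98 and 63.2 CPM untreated. Its log2 fold change of 1.63 ± 0.063 was then the largest of the 10 (adjusted p = 1.38e-42, edgeR with Benjamini-Hochberg adjustment), and SEC61B stood at 1.03 ± 0.059. In Parental cells both passed at 4 h, at 0.17 ± 0.065 for SEC61G and 0.17 ± 0.059 for SEC61B, when all 10 genes were called higher (20.9% of all genes).

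SEC63, the J-domain partner, and SEC62 had the largest and the smallest thapsigargin effect of Dmr-PERK cells over 4 to 24 h. SEC63 had 186, 188 and 172 CPM with 24 h of thapsigargin in Dmr-PERK cells, against 64.7, 67.3 and 68.3 CPM untreated, without overlap, and a log2 fold change of 1.45 ± 0.036 (adjusted p = 1.79e-58, edgeR with Benjamini-Hochberg adjustment). Its effect was highest at 16 h, at 1.62 ± 0.035 in Dmr-PERK and 1.75 ± 0.034 in Parental cells. SEC62 had 64.1, 60.8 and 57.2 CPM with thapsigargin at 24 h, against 55.8, 53.0 and 54.4 CPM untreated. These groups stood apart by little, and the log2 fold change was 0.15 ± 0.060 (adjusted p = 0.025, edgeR with Benjamini-Hochberg adjustment). Over 4 to 24 h SEC62 averaged 0.25 ± 0.029 in Dmr-PERK and 0.40 ± 0.028 in Parental cells, the smallest effect of the 10 in each line.

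All 4 TRAP genes rose. Over 4 to 24 h in Dmr-PERK cells the log2 fold changes were 1.00 ± 0.021 for SSR1, 0.81 ± 0.026 for SSR2, 1.01 ± 0.025 for SSR3 and 1.02 ± 0.028 for SSR4. In Parental cells they spread more widely, at 0.94 ± 0.020, 0.63 ± 0.025, 1.37 ± 0.024 and 1.14 ± 0.026 in the same order. SSR3 had 334, 327 and 318 CPM in thapsigargin-treated Parental cells at 24 h, against 96.7, 95.4 and 95.7 CPM in untreated ones, and 232, 226 and 218 CPM in thapsigargin-treated Dmr-PERK cells, against 87.0, 80.8 and 92.9 CPM in untreated ones. The treated wells were above the untreated ones in both lines. TRAM1, which lies next to the channel, averaged 0.81 ± 0.017 in Dmr-PERK and 0.97 ± 0.017 in Parental cells. All 10 thapsigargin effects changed between 4 and 24 h in Dmr-PERK cells (F-test, 52.2% of all genes) and in Parental cells (49.9%).

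The lines differed in how much thapsigargin did, by less than the effect itself. Of the 10 genes, 8 passed the test of the difference between lines, 1 with a larger (11.3% of all genes) and 7 with a smaller effect in Dmr-PERK cells (14.4%), and with library totals alone 2 larger and 5 smaller. SSR3 rose less in Dmr-PERK cells, with a difference between the effects of −0.36 ± 0.034, followed by SEC63 (−0.17 ± 0.025), TRAM1 (−0.16 ± 0.024) and SEC62 (−0.15 ± 0.040). SSR2 was the gene with the larger effect in Dmr-PERK cells, by 0.18 ± 0.036 (adjusted p = 2.51e-05, edgeR with Benjamini-Hochberg adjustment). On log2 TPM the calls of SEC63 (−0.15), SEC62 (−0.13) and SEC61G (−0.08) were lost. The calls of SEC61G (−0.13 ± 0.045) and SSR4 (−0.12 ± 0.038) were lost with library totals alone (−0.10 and −0.09). They were also lost with no filter on low counts (−0.11 and −0.10) and without replicate 1 or 2. SEC61A1 stood at −0.11 ± 0.022. The tests for SEC61B (−0.04 ± 0.042) and SSR1 (0.05 ± 0.029) did not pass.

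**Figure D2:**
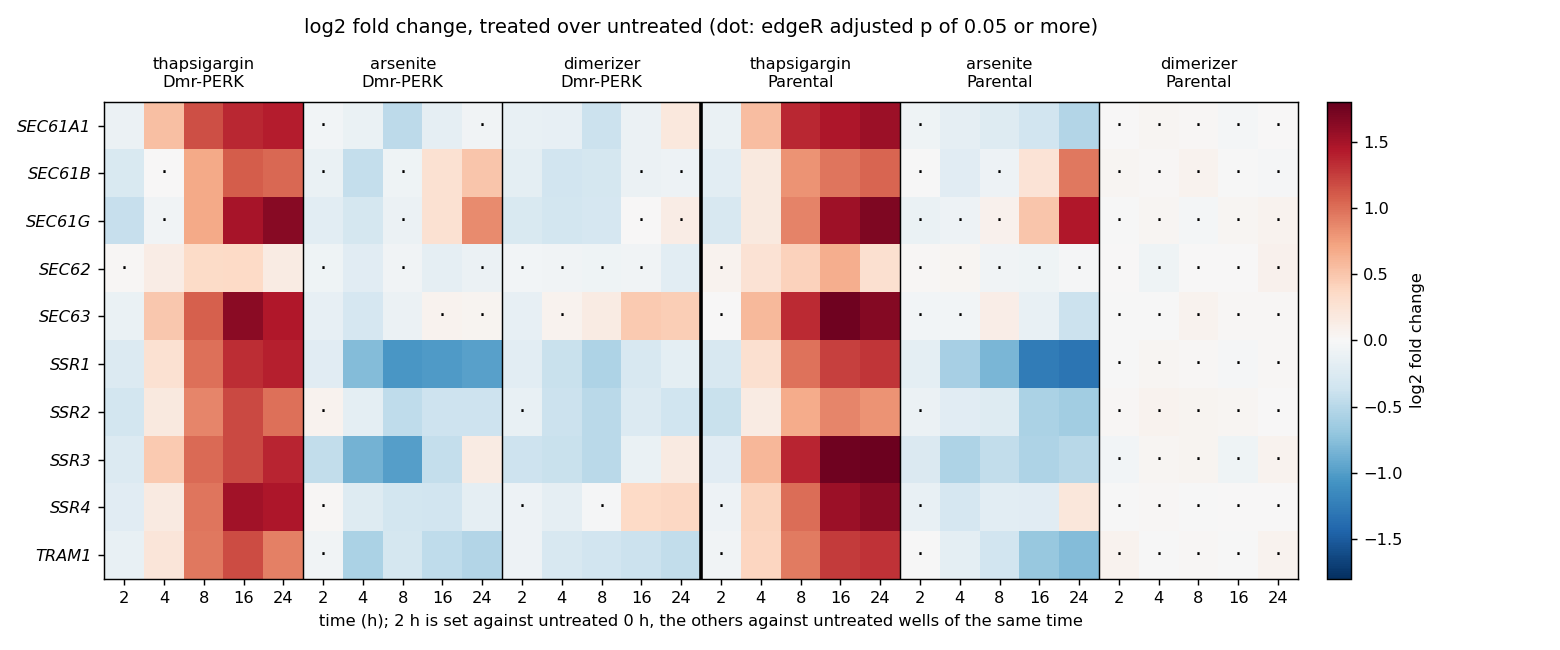
Log2 fold change of treated over untreated CPM (colour scale) for each gene (rows) at each time in hours (columns), for thapsigargin, arsenite and dimerizer in Dmr-PERK and Parental cells. A dot marks an adjusted p of 0.05 or more. The 2 h columns are set against untreated cells at 0 h. Thapsigargin columns from 8 h on show all 10 genes higher, arsenite columns hold both signs, and each Parental dimerizer square carries a dot. In those thapsigargin columns all treated wells lay above all untreated wells for the 10 genes, and for 26.8 to 29.3% of all genes tested.

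The genes called at 2 h were lower than untreated. No untreated wells were collected at 2 h, so these samples were set against untreated cells at 0 h, and any change over that interval in untreated wells was not measured. Thapsigargin at 2 h lowered 9 genes in Dmr-PERK cells (15% of all genes were called lower) and 6 in Parental cells (12.6% lower). In Parental cells SSR2 fell most (−0.40 ± 0.054). SEC61G fell most in Dmr-PERK cells, with 45.0, 45.2 and 47.4 CPM, against 62.2, 59.5 and 62.2 CPM untreated at 0 h. Those groups did not overlap, and the log2 fold change was −0.42 ± 0.066 (adjusted p = 8.7e-08, edgeR with Benjamini-Hochberg adjustment). SEC61A1 (−0.11 ± 0.032) and SEC63 (−0.12 ± 0.036) fell less, and on log2 TPM SEC63 gave 0.09 and SEC61A1 0.00 in place of these values. Against untreated cells at 4 h, SEC62, which did not pass against 0 h (0.03), gave −0.13.

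Arsenite at 2 h lowered 4 genes in Dmr-PERK cells (9.46% of all genes lower) and 2 in Parental cells (7.96% lower). SSR3 and SSR1 fell in both lines, with SSR3 at −0.45 ± 0.054 in Dmr-PERK and −0.27 ± 0.053 in Parental cells. Dimerizer at 2 h lowered 7 genes in Dmr-PERK cells (9.13% of all genes lower), SSR3 again most (−0.37 ± 0.054), and called 0 of the 10 in Parental cells (0.178% of all genes), where 0 had an unadjusted p under 0.05 and DESeq2 called 0. Against untreated cells at 4 h, arsenite called 9 genes in Dmr-PERK (34.6% of all genes) and 9 in Parental cells (34.5%), and dimerizer called 6 in Parental cells (23%). The counts at 2 h thus depend on the untreated time they are set against, and other settings moved them too. The 7 dimerizer calls in Dmr-PERK cells became 4 with no filter on low counts, 3 on log2 TPM and between 3 and 8 with 1 replicate number left out. The 2 arsenite calls in Parental cells became 4 with library totals alone, 5 without the libraries that stand apart and between 1 and 4 with 1 replicate number left out. The 6 thapsigargin calls there became 3 without replicate 2.

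Arsenite split the group, with the TRAP genes and TRAM1 lower and the small channel subunits rising late. Averaged over 4 to 24 h, 2 genes rose and 8 fell in Dmr-PERK cells (44.4% of all genes higher and 39.2% lower). In Parental cells 2 rose and 7 fell (42.7% and 39.4% of all genes). The median of the 10 was −0.23 in Dmr-PERK and −0.22 in Parental cells, beside 0.12 and 0.09 over all genes. The arsenite counts depended on the scaling. In Dmr-PERK cells library totals alone gave 0 higher and 9 lower and DESeq2's size factors 3 higher and 6 lower, and in Parental cells they gave 1 and 8, and 3 and 5. The all-gene median in Dmr-PERK cells moved by −0.19 under library totals alone and by 0.11 under DESeq2's size factors, and in Parental cells by −0.18 and 0.11. Relative to the all-gene median, the median of the 10 was −0.35 in Dmr-PERK and −0.31 in Parental cells under either scaling.

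SSR1, the α subunit of TRAP, fell most. At 24 h it had 54.1, 55.6 and 56.2 CPM with arsenite in Dmr-PERK cells, against 111, 106 and 109 CPM untreated, and the groups did not overlap. The log2 fold change over 4 to 24 h was −0.95 ± 0.023 in Dmr-PERK and −0.998 ± 0.023 in Parental cells (adjusted p = 5.78e-61 and 1.02e-62, edgeR with Benjamini-Hochberg adjustment). It was called lower at each of the 4 times in both lines, from −0.78 at 4 h to −1.04 at 8 h in Dmr-PERK cells. SSR2 (−0.35 ± 0.027 in Dmr-PERK and −0.41 ± 0.027 in Parental cells) and TRAM1 (−0.46 ± 0.018 and −0.49 ± 0.017) were also lower at all 4 times. SSR4 averaged −0.27 ± 0.030 in Dmr-PERK and −0.12 ± 0.028 in Parental cells. The averages of SSR1, SSR2, SSR3, TRAM1 and SEC61A1 were negative in both lines under each scaling tried. The SSR4 call in Parental cells was lost with DESeq2's size factors (−0.01) and over 8 to 24 h (−0.06).

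SSR3 turned with time in Dmr-PERK cells. Its average over 4 to 24 h was −0.53 ± 0.026 in Dmr-PERK and −0.51 ± 0.026 in Parental cells. It was lower at 4 h (−0.85 ± 0.054) and at 8 h (−0.99 ± 0.052). At 24 h it had 92.5, 100.0 and 96.0 CPM with arsenite, against 87.0, 80.8 and 92.9 CPM untreated, a log2 fold change of 0.15 ± 0.053 that was called higher although 1 arsenite well lay below the highest untreated well. The same wells held 96.0, 112.1 and 96.3 TPM with arsenite, against 115.9, 112.5 and 120.5 TPM untreated, so in TPM the arsenite wells were lower and the direction at 24 h depended on the scale. In Parental cells SSR3 stayed lower at 24 h (−0.50 ± 0.055).

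Of the channel genes, SEC61A1 was lower over 4 to 24 h, at −0.20 ± 0.016 in Dmr-PERK and −0.32 ± 0.016 in Parental cells. SEC61G and SEC61B went the other way late. In Dmr-PERK cells at 4 h SEC61G (−0.32 ± 0.070) and SEC61B (−0.43 ± 0.064) were lower. At 24 h SEC61G had 108, 108 and 115 CPM with arsenite, against 61.3, 59.98 and 63.2 CPM untreated, and SEC61B 91.6, 87.6 and 97.6 CPM with arsenite, against 64.6, 66.2 and 66.0 CPM untreated. Neither pair of groups overlapped, and the log2 fold changes were 0.85 ± 0.065 and 0.50 ± 0.061 (adjusted p = 4e-22 and 3.43e-12, edgeR with Benjamini-Hochberg adjustment). In TPM the direction at 24 h was the same, with 446, 448 and 439 TPM of SEC61G in arsenite, against 326, 319 and 329 TPM untreated. SEC61B had 294, 284 and 293 TPM in arsenite, against 271, 276 and 270.1 TPM untreated. Averaged over 4 to 24 h, however, their direction in Dmr-PERK cells depended on the scaling: SEC61G gave 0.17 ± 0.033 with TMM and −0.02 with library totals alone, and SEC61B 0.07 ± 0.031 (adjusted p = 0.0414, edgeR with Benjamini-Hochberg adjustment) and −0.12. In Parental cells the averages were 0.48 ± 0.033 for SEC61G and 0.22 ± 0.031 for SEC61B, and with library totals alone the SEC61B call there was lost (0.04). The Parental SEC61B average also changed sign on log2 TPM (−0.10) and over 4, 8 and 16 h (−0.02, not called). The SEC61B call in Dmr-PERK cells was also lost without replicate 1 (0.03) and without replicate 2 (0.08).

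For SEC62 and SEC63 the arsenite value depended on the scaling and the scale. SEC62 averaged −0.14 ± 0.030 in Dmr-PERK cells, a call that was lost with DESeq2's size factors (−0.02) and with DESeq2 (−0.02). In Parental cells it averaged −0.03 ± 0.029, which did not pass (adjusted p = 0.305, edgeR with Benjamini-Hochberg adjustment) and turned to 0.08 with DESeq2's size factors. SEC63 averaged −0.07 ± 0.019 in Dmr-PERK cells, and 0.04 with DESeq2's size factors. In Parental cells SEC63 averaged −0.11 ± 0.019, and the call was lost with DESeq2's size factors (0.00) and over 4, 8 and 16 h (−0.02). At 24 h in Dmr-PERK cells SEC63 had 68.2, 69.6 and 69.7 CPM with arsenite, against 64.7, 67.3 and 68.3 CPM untreated, and the groups overlapped. The same wells had 19.9, 19.7 and 16.5 TPM with arsenite, against 38.8, 36.4 and 38.1 TPM untreated, without overlap. In Parental cells at 24 h both scales were lower and neither overlapped. SEC63 had 50.5, 53.4 and 55.9 CPM with arsenite, against 70.6, 70.9 and 67.9 CPM untreated, a log2 fold change of −0.39 ± 0.040 (adjusted p = 1.3e-15, edgeR with Benjamini-Hochberg adjustment). Those wells had 14.1, 13.6 and 18.5 TPM with arsenite, against 40.6, 42.4 and 46.0 TPM untreated. TPM divides by transcript length and CPM does not, and which SEC63 transcripts were counted in each group was not analysed here.

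**Figure D3:**
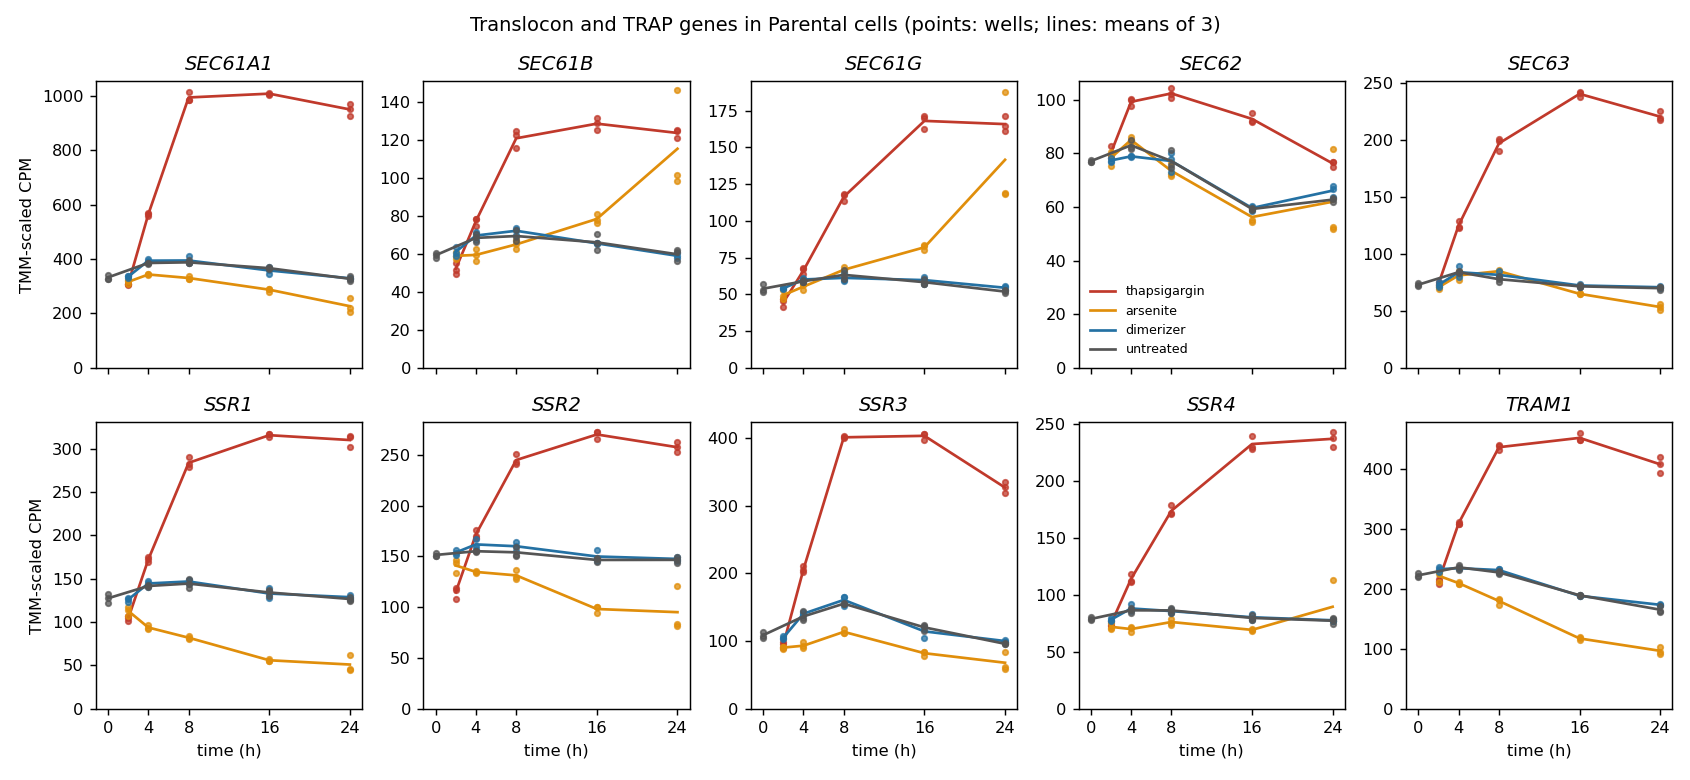
CPM (TMM-scaled, vertical axes) of the 10 genes against hours of treatment in Parental cells, drawn as for Dmr-PERK cells with 1 point per well and lines through the means of 3. Dimerizer and untreated lines run together in all panels, and in arsenite at 24 h 1 well lies away from the others for several genes.

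Arsenite at 24 h in Parental cells rested on wells that stood apart. Mitochondrial genes took 6.51, 6.61 and 4.14% of the counts in wells 1, 2 and 3, and the part of this in the values below was not tested. SEC61G had 118, 119 and 188 CPM with arsenite, against 52.0, 50.5 and 53.0 CPM untreated, and SSR4 had 76.7, 78.8 and 113 CPM with arsenite, against 74.7, 79.5 and 77.8 CPM untreated. Well 3 differed from the other treated wells in both. The log2 fold change of SEC61G was 1.44 ± 0.065 with all 3 wells and 1.19 without well 3. SSR4 gave 0.21 ± 0.057 with well 3 and 0.01 without it (adjusted p = 0.818, edgeR with Benjamini-Hochberg adjustment), so its call at 24 h was lost. SEC62 was not called with it (−0.02) and was called lower without it (−0.26, adjusted p = 9.5e-07, edgeR with Benjamini-Hochberg adjustment). The other 8 genes kept their direction, with SSR1 at −1.48 and SEC61B at 0.74. Over 4 to 24 h all 10 genes were then called, 2 higher and 8 lower, against 9 with well 3.

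The arsenite effect differed between the lines for 5 of the 10 genes, 1 higher (23.5% of all genes) and 4 lower (18.7%) in Dmr-PERK cells. With both directions together, that count is near the share of all genes. On log2 TPM the split was 3 higher and 2 lower. The effect was less negative in Dmr-PERK cells for SEC61A1, by 0.12 ± 0.023. It was lower in Dmr-PERK cells for SEC61G (−0.31 ± 0.047), SEC61B (−0.16 ± 0.043), SSR4 (−0.15 ± 0.041) and SEC62 (−0.10 ± 0.042). SEC63 (0.04 ± 0.026), SSR3 (−0.02 ± 0.037) and TRAM1 (0.03 ± 0.025) did not pass. On log2 TPM the SEC61B (−0.07) and SEC62 (−0.08) calls were lost. These values include the wells of Parental cells at 24 h. Without well 3 there were 6 calls, 3 in each direction, of which SEC62 was no longer one (−0.05) while SSR1 (0.08) and SSR2 (0.11) were. The arsenite effect changed between 4 and 24 h for 8 genes in each line (71.2% of all genes in Dmr-PERK and 73.1% in Parental cells).

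The dimerizer alone did not raise the group. In Dmr-PERK cells 8 of the 10 genes were lower and 2 higher over 4 to 24 h (27.7% of all genes lower and 27.5% higher), with a median of −0.17 beside −0.03 over all genes. In Parental cells 0 of the 10 were called by edgeR's quasi-likelihood test (0.582% of all genes), 0 had an unadjusted p under 0.05, and DESeq2 called 0. The Parental log2 fold changes ran from 0.00 to 0.04. The difference between the lines passed for all 10 genes, 2 higher (23.7% of all genes) and 8 lower (23.2%) in Dmr-PERK cells.

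The TRAP genes other than SSR4 fell. SSR2 had 111, 108 and 109 CPM after 8 h of dimerizer in Dmr-PERK cells, against 151, 151 and 157 CPM untreated. In Parental cells it had 155, 164 and 161 CPM with dimerizer, against 152, 159.8 and 151 CPM untreated. Treated and untreated wells were apart in Dmr-PERK cells and overlapped in Parental cells. The log2 fold change over 4 to 24 h in Dmr-PERK cells was −0.37 ± 0.027 for SSR2, −0.36 ± 0.022 for SSR1, −0.21 ± 0.026 for SSR3 and −0.36 ± 0.018 for TRAM1. For SSR2 the difference from Parental cells was −0.41 ± 0.037 (adjusted p = 1.49e-17, edgeR with Benjamini-Hochberg adjustment).

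SEC63 and SSR4 were the ones that rose. SEC63 had 92.5, 90.4 and 88.4 CPM with 24 h of dimerizer in Dmr-PERK cells, against 64.7, 67.3 and 68.3 CPM untreated. SSR4 had 83.2, 87.7 and 87.0 CPM with dimerizer, against 68.0, 64.4 and 66.1 CPM untreated. Neither pair overlapped, and the log2 fold changes at 24 h were 0.44 ± 0.037 and 0.38 ± 0.057 (adjusted p = 3.5e-19 and 1.32e-08, edgeR with Benjamini-Hochberg adjustment). SSR4 was first lower, at −0.15 ± 0.058 at 4 h, then passed upward at 16 h. SEC63 rose by 0.15 ± 0.036 at 8 h and 0.47 ± 0.037 at 16 h. The differences from Parental cells were 0.26 ± 0.026 for SEC63 and 0.13 ± 0.040 for SSR4. The SEC63 difference was 0.16 on log2 TPM, where its call was lost, and the SSR4 call was lost without replicate 2 (0.11).

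SEC61A1 and SSR3 crossed over with time under dimerizer. SEC61A1 was lower at 8 h (−0.38 ± 0.033) and higher at 24 h (0.19 ± 0.033), when it had 330.4, 334 and 325 CPM with dimerizer, against 293, 285 and 292 CPM untreated. SSR3 was lower at 8 h (−0.49 ± 0.050) and higher at 24 h (0.16 ± 0.053). SEC61B and SEC61G were lower at 4 and 8 h, SEC61G at −0.34 ± 0.068 at 4 h, and neither passed at 16 or 24 h. SEC62 passed at 24 h, at −0.19 ± 0.062, and not at 4, 8 or 16 h. Averaged over 4 to 24 h, SEC61A1 stood at −0.11 ± 0.016, SEC61B at −0.21 ± 0.031, SEC61G at −0.12 ± 0.034 and SEC62 at −0.09 ± 0.030. The SEC61G call was lost over 8 to 24 h (−0.05), and that of SEC62 on log2 TPM (−0.04) and without replicate 1 (−0.08). SEC63 and SSR4 averaged 0.28 ± 0.018 and 0.14 ± 0.029. The effect changed between 4 and 24 h for 7 genes in Dmr-PERK cells (42.1% of all genes) and for 0 in Parental cells (3.76%), where 0 had an unadjusted p under 0.05 and DESeq2 was not run on this test.

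**Figure D4:**
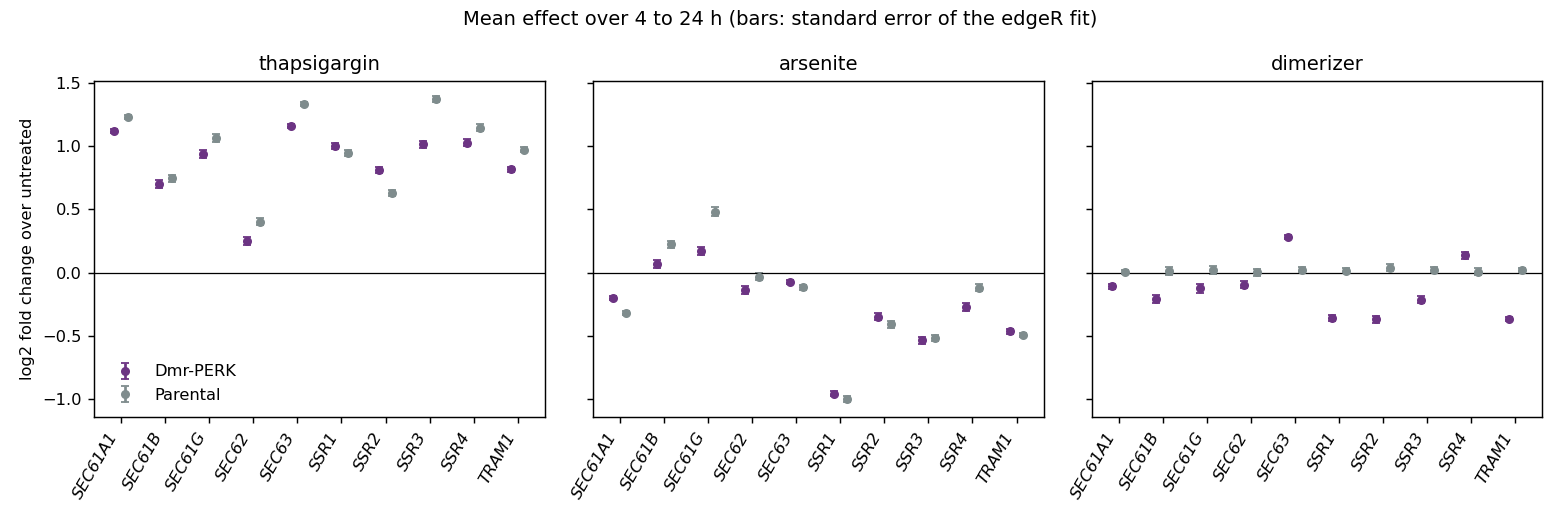
Mean log2 fold change of treated over untreated CPM over 4 to 24 h (vertical axis) for each gene (horizontal axis), in Dmr-PERK and Parental cells, with bars of 1 standard error, in a panel per treatment. All thapsigargin points lie above 0, arsenite points lie on both sides with SSR1 lowest, and dimerizer points lie away from 0 only in Dmr-PERK cells.

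Direct comparisons between treatments of Dmr-PERK cells over 2 to 24 h set the sizes side by side. Against arsenite, thapsigargin-treated cells had more RNA of all 10 genes (37.3% of all genes higher), with SSR1 at 1.56 ± 0.020 and SEC62 at 0.33 ± 0.026 as the ends of the range. Against thapsigargin, dimerizer-treated cells had less of all 10 (20.9% of all genes lower), between −1.07 ± 0.019 for SSR1 and −0.29 ± 0.026 for SEC62. Against arsenite, dimerizer-treated cells differed for 9 genes, 6 higher (37.8% of all genes) and 3 lower (42.6%). The split was 4 and 5 with DESeq2's size factors and 8 and 2 with library totals alone. SSR1 was 0.48 ± 0.021 higher, SSR4 0.30 ± 0.026, SEC63 0.28 ± 0.017 and SSR3 0.27 ± 0.024, while SEC61G (−0.25 ± 0.030) and SEC61B (−0.23 ± 0.028) were lower. The SEC61B call was lost on log2 TPM (−0.03). SEC61A1 (0.05 ± 0.015) and TRAM1 (0.08 ± 0.016) turned sign with DESeq2's size factors and SSR2 (−0.06 ± 0.024) with library totals alone. Each agent was given at 1 dose, so these are comparisons of those doses.

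**Figure D5:**
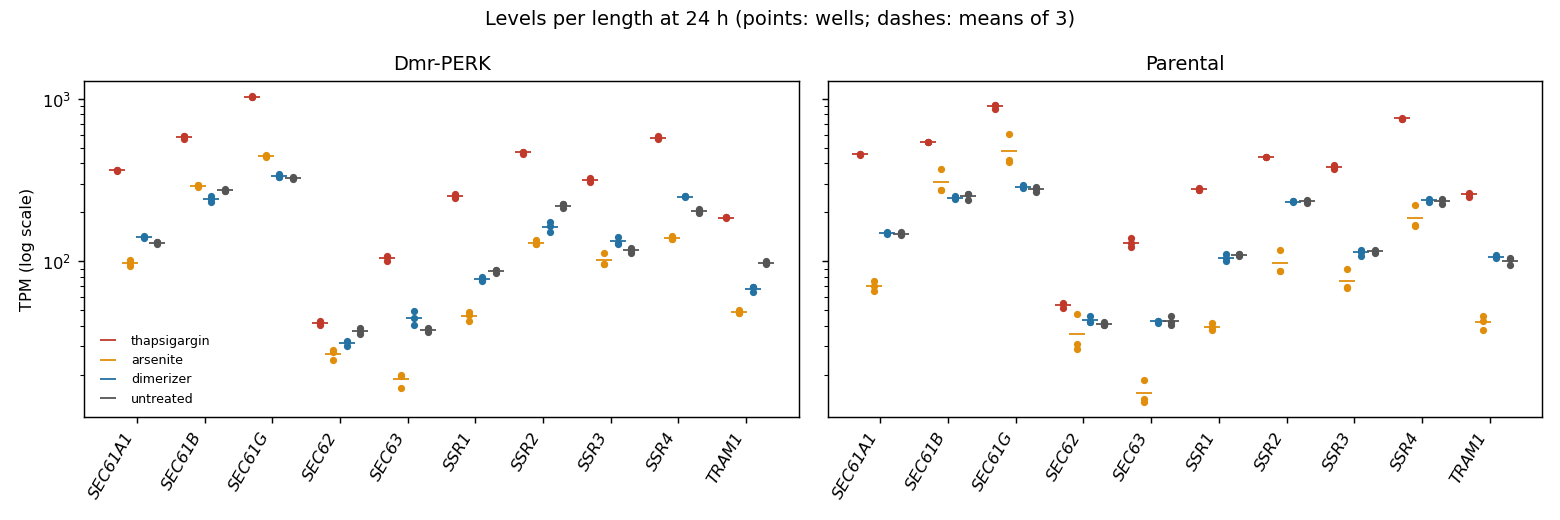
TPM (log scale) of the 10 genes at 24 h by treatment in both lines, with 1 point per well and a dash at the mean of 3. Thapsigargin points lie above untreated ones for each gene, and SEC61G in arsenite lies above untreated while SSR1 lies below. In CPM such separation of thapsigargin wells held for 29.3% of all genes tested in Dmr-PERK and 29% in Parental cells.

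The balance of subunits shifted with treatment, as TPM and without a test. The 10 genes together made up 3914 ± 37.5 TPM with thapsigargin at 24 h in Dmr-PERK cells, 1342 ± 9.62 with arsenite and 1484 ± 7.45 with dimerizer, against 1526 ± 14.2 TPM untreated (SD, n = 3). In Parental cells the sums were 4186 ± 21.8 TPM with thapsigargin, 1344 ± 238 with arsenite and 1563 ± 8.39 with dimerizer, against 1554 ± 10.7 TPM untreated. SEC61G per SEC61A1 was 4.58 ± 0.166 in arsenite, against 2.51 ± 0.0102 untreated in Dmr-PERK cells. SEC61B per SEC61A1 was 1.60 ± 0.0509 in thapsigargin, against 2.10 ± 0.0667 untreated in the same line. Within TRAP, SSR4 per SSR1 in Dmr-PERK cells was 3.23 ± 0.0691 with dimerizer, against 2.33 ± 0.0464 untreated. It was 3.02 ± 0.265 with arsenite and 2.29 ± 0.0574 with thapsigargin in that line. In Parental cells it was 4.7 ± 0.85 with arsenite, in the wells that stood apart, against 2.14 ± 0.0375 untreated.

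A list of 47 other genes of ER targeting and insertion, with 5 lumenal partners among them, was tested in full. Of these, 35 rose and 9 fell with thapsigargin in Dmr-PERK cells (30.9% of all genes rose and 32.2% fell). Their median was 0.32, beside 0.97 for the 10 genes above. The signal recognition particle had 5 of 6 genes higher (SRP54 0.85 ± 0.020 among them) and SRP14 lower (−0.24 ± 0.034), its receptor 2 of 2 (SRPRB 1.67 ± 0.028) and signal peptidase 5 of 5 (SEC11C 2.33 ± 0.035 and SPCS3 0.50 ± 0.029). Of 5 lumenal partners 5 rose, led by HSPA5 (3.64 ± 0.022), its exchange factor HYOU1 (2.74 ± 0.018) and its co-chaperone DNAJC3 (2.31 ± 0.027). The ER membrane complex, another insertase, had 8 of 10 higher and EMC10 lower (−0.57 ± 0.026). The genes of tail-anchor insertion had 3 of 7 higher and 2 lower, at a median of 0.01. Those of the multipass translocon had 6 of 8 higher and 2 lower, at a median of 0.31. The paralogs SEC61A2 (−0.16 ± 0.028), TRAM2 (−0.85 ± 0.017) and TRAM1L1 (−0.64 ± 0.073) were lower, 3 of 3. SRP14, EMC10 and TRAM1L1 are named after their values were seen. In Parental cells 37 of the 47 rose and 9 fell (30.1% and 35% of all genes).

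With arsenite 17 of the 47 rose and 27 fell in Dmr-PERK cells (44.4% of all genes rose and 39.2% fell), at a median of −0.14. In Parental cells 15 rose and 28 fell (42.7% and 39.4% of all genes). SPCS3 (−1.10 ± 0.032), TRAM2 (−0.96 ± 0.018) and HYOU1 (−0.73 ± 0.019) fell and EMC3, a core subunit of the ER membrane complex, rose (1.05 ± 0.026). Dimerizer in Dmr-PERK cells gave 24 higher and 14 lower (27.5% and 27.7% of all genes), at a median of 0.06. SRPRB (0.52 ± 0.030) and HSPA5 (0.36 ± 0.020) rose and TRAM2 (−0.47 ± 0.017) fell. In Parental cells dimerizer called 1 of the 47 (0.582% of all genes), HYOU1 (0.07 ± 0.017), named after its value was seen.

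Over the 40 group means of log2 CPM, each of the 10 genes was set beside the mean profile of the other 9. SEC61A1 followed it most closely (Pearson r = 0.979), then SSR3 (0.948), SSR4 (0.937), SEC63 (0.935) and SSR2 (0.930). SEC61G (0.676) and SEC62 (0.491) followed it least, and their own correlation with each other was 0.024. Among 10569 genes with a mean of at least 10 CPM, those most like the mean profile of the 10 were PPIB (0.985), OSTC (0.972), GMPPA (0.971), TMED2 (0.969) and RPN1 (0.965). These are descriptions over group means that share treatments and untreated wells.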

How the data were processed

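The authors deposited estimated counts per gene and TPM per gene for 120 libraries, and each column matched the label of 1 sample. FastQC 0.11.5, Salmon 0.9.1 and GRCh38 are named per the submitters' processing notes, and a directional library kit per the labels' protocols. The sources used here do not give the strand setting of the counting. Of the non-zero deposited estimated counts 49.5% were whole within 1e-05, and no replicates matched within sampling noise. The deposited TPM columns summed to 1001150 to 1001825.

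After rounding, the estimated counts went into 1 edgeR 4.0.16 quasi-likelihood fit (R 4.3.3) over 40 groups, after a filter at a minimum count of 10 and TMM scaling (factors 0.839 to 1.17). Benjamini-Hochberg adjustment ran over all genes of a comparison, and an adjusted p under 0.05 was a call. Standard errors of log2 fold changes are the effect divided by the root of F. CPM follows 1 gene over samples and TPM compares genes. The fit was tested on simulated data, the outcome of which is not given here and is not used for any result above. Alternatives used other scalings, no filter, a replicate block, 1 line only, fewer libraries or times, limma 3.58.1 on log2(TPM + 1) and log2(TPM + 0.1), and DESeq2 1.42.0. At 2 h untreated wells at 0 h were the reference. The 10 genes and the lists were chosen with earlier results of these data known. The rule names all 10 genes in each comparison averaged over times. Those not given singly in a comparison between treatments lie within its stated range, and the line differences under dimerizer stand under the flagged results. Of 47 other translocation genes, the 3 with the smallest adjusted p per treatment of Dmr-PERK cells are named, with HSPA5, SRPRB, SRP54, SEC11C, SPCS3 and SEC61A2. Promoter windows came from RefSeq (GRCh38.p14).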

Additional observations from a re-analysis of the deposited data

Results flagged for a closer look

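The size of a treatment's effect differed between the lines for the following genes by the test of the difference itself (Dmr-PERK effect minus Parental effect, log2, mean of 4 to 24 h, edgeR with Benjamini-Hochberg adjustment). With thapsigargin the values were −0.11 for SEC61A1, −0.13 for SEC61G, −0.15 for SEC62, −0.17 for SEC63, 0.18 for SSR2, −0.36 for SSR3, −0.12 for SSR4 and −0.16 for TRAM1. SSR2 alone of these was positive. With arsenite they were 0.12 for SEC61A1, −0.16 for SEC61B, −0.31 for SEC61G, −0.10 for SEC62 and −0.15 for SSR4, and each includes the Parental wells at 24 h that stood apart. With dimerizer all 10 differed, at −0.12 for SEC61A1, −0.22 for SEC61B, −0.15 for SEC61G, −0.10 for SEC62, 0.26 for SEC63, −0.37 for SSR1, −0.41 for SSR2, −0.23 for SSR3, 0.13 for SSR4 and −0.38 for TRAM1.

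The effect of a treatment also differed between times, by an F-test of the 8, 16 and 24 h effects against the 4 h effect. In Dmr-PERK cells it passed for 10 genes with thapsigargin (52.2% of all genes), 8 with arsenite (71.2%) and 7 with dimerizer (42.1%). In Parental cells it passed for 10 with thapsigargin (49.9%) and 8 with arsenite (73.1%). The arsenite counts are near the share of all genes.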

How the results depend on the processing

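The thapsigargin averages kept all 10 genes higher in both lines under each alternative run, and the dimerizer average called 0 in Parental cells. Over all results and alternatives, 13 counts of called genes moved by over 1.5 times and 37 values for single genes reversed, and the causes were not tested. The alternative without replicate 3 of Parental arsenite at 24 h and the mean over 4, 8 and 16 h were chosen after seeing the data. With the replicate block no count moved and no call changed. Same-numbered wells are not said to be linked, and their deviations correlated at −0.15 to 0.32 (median 0.01), with all correlations over 0.1 in 1 of 30 pairs of groups. Arsenite averages reversed for SEC63 in Dmr-PERK cells (0.0379 with DESeq2's size factors in edgeR, 0.0391 with DESeq2, 0.0011 over 8 to 24 h), for SEC61B there (−0.12 with library totals, −0.17 on log2 TPM with either pseudocount) and for SEC61G there (−0.0164, then −0.0494 and −0.0496). In Parental cells they reversed for SEC62 (0.0825 with the size factors and 0.0823 with DESeq2), SEC63 (1e-04) and SEC61B (−0.0973 and −0.0977 on log2 TPM, −0.017 without 24 h). Dimerizer against arsenite reversed for SEC62 (−0.0667 and −0.0675), SEC61A1 (−0.0506 and −0.0502) and TRAM1 (−0.0286 and −0.0296) with the size factors and with DESeq2, and for SSR2 with library totals (0.0954) and log2 TPM (0.15). With 1 replicate number left out, averages over 4 to 24 h lost the calls of SEC61B with arsenite in Dmr-PERK cells (0.03 and 0.08), SEC62 with dimerizer there (−0.08), and, between the lines, SEC61G and SSR4 with thapsigargin, SEC61A1, SEC61B and SEC62 with arsenite, and SEC61G, SEC62 and SSR4 with dimerizer. SSR2 and SEC61B between the untreated lines lost theirs in the same way, without replicate 1 or 2 and without replicate 2. SSR3 between untreated lines was 0.13 on log2 TPM.

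The 2 h results moved most. Against untreated cells at 4 h the calls were 9 with arsenite in each line and 6 with dimerizer in Parental cells, and SEC62 (−0.13, thapsigargin) and SSR4 (−0.15, arsenite) in Dmr-PERK cells and SEC63 (−0.19, thapsigargin), SEC61A1 and SEC61B (−0.20 and −0.17, dimerizer) in Parental cells reversed. On log2 TPM with pseudocounts of 1 and 0.1, SEC63 gave 0.0907 and 0.0928 with thapsigargin and 0.0782 and 0.0801 with dimerizer, and SEC61A1 0.0041 and 0.0042 with thapsigargin, in Dmr-PERK cells. Dimerizer calls in Dmr-PERK cells were 4 with no filter and 3 on log2 TPM, and 3 to 8 when 1 replicate was left out. For arsenite in Parental cells they were 4 with library totals, 5 without the libraries that stand apart and 1 to 4 with 1 replicate left out, and for thapsigargin there 3 to 6. Leaving out those libraries gave no value where Parental arsenite at 24 h was needed. The lowest group mean of the 10 genes was 44.5 CPM, and whether depth bears on their values was not tested.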
